A study of Homo sapiens with 10 samples.

Results

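Axon guidance ligands and receptors are the 70 genes of 12 families that carry the secreted and cell-surface signals by which growing axons, migrating cells and sprouting vessels are steered. The rule took whole gene families and no measured value, though the families were picked with earlier results of these data known: the class 3 semaphorins (7 genes), the membrane-bound semaphorins (13), the neuropilins (2), the plexins (9), the netrins (4), the netrin receptors (6), the slits (3), the roundabout receptors (4), the ephrin-A ligands (5), the EphA receptors (9), the ephrin-B ligands (3) and the EphB receptors (5). All 70 were among the 35940 gene symbols of the table, 35 as ligands and 35 as receptors, and 66 of them were among the 15251 symbols with enough counts to test. EPHA3, NTN3, NTN4 and ROBO4 were too low to test in these cells.

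RNA was sequenced from wild-type ESI017 cells, a line of human pluripotent stem cells, kept in mTeSR1, a defined medium that maintains the undifferentiated state. Cells were seeded at 200000 per well of a 12-well plate 24 h before treatment. The 5 groups held 2 libraries each. They were mTeSR1 alone, WNT3A at 300 ng/ml for 6 h or for 18 h, and CHIR99021 at 8 µM for 6 h or for 18 h. WNT3A is a secreted ligand of the canonical WNT pathway, and CHIR99021 is a small-molecule inhibitor of GSK3 that raises β-catenin without a ligand. All groups shared the line, the genotype and the medium. The labels list neither a solvent control for CHIR99021 nor a time for the mTeSR1 libraries, and the agents were each used at 1 dose, so a difference between them is a difference between these 2 doses.

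Guidance cues act in pairs with their receptors. Class 3 semaphorins are secreted and bind neuropilins, which signal through plexins, while membrane-bound semaphorins mostly bind plexins directly. Netrins attract through DCC and neogenin and repel through UNC5 receptors, slits bind roundabout receptors, and ephrins are tethered to the membrane and signal in both directions when they meet an Eph receptor tyrosine kinase on the neighbouring cell. In the early embryo the same molecules act before any axon exists, where ephrins and Eph receptors are known for setting boundaries between cell populations and for segmenting the mesoderm.

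The libraries held 1.66e+07 to 2.67e+07 estimated counts, of which the 70 genes took 0.286% to 0.355%. Levels are given as CPM, the count scaled to a library of 1000000 after TMM normalization. Pluripotency genes (POU5F1, SOX2, NANOG and 5 others) summed to 9559 and 9517 CPM in mTeSR1 and to 7134 to 8885 CPM in the 8 treated libraries, all of them lower. None of these 8 genes was called in any comparison. Markers of the primitive streak, the first mesoderm and endoderm of the embryo, summed to 2.14 and 3.23 CPM in mTeSR1, 72.7 and 75.9 after WNT3A for 6 h, 233 and 242 after WNT3A for 18 h, 6.71 and 9.17 after CHIR99021 for 6 h, and 23.0 and 210 after CHIR99021 for 18 h. Of the neural crest markers FOXD3, which pluripotent cells also express, fell in 3 of the 4 treatments, and the list summed to 48.4 to 57.2 CPM in mTeSR1 against 3.84 to 13.4 in the treated libraries. Neural and neuronal markers stayed between 9.47 and 24.7 CPM, and endothelial markers between 104 and 291 CPM, with CDH5 at 0 in both CHIR99021 18 h libraries. Amnion or trophectoderm markers summed to 17.7 and 14.9 CPM in mTeSR1, 64.4 and 42.6 after WNT3A for 18 h and 15.04 and 55.2 after CHIR99021 for 18 h. Of the fibroblast markers COL1A2 rose and THY1 fell after WNT3A for 18 h, and of the endoderm markers FOXA2 rose at 18 h of either agent. Mitochondrially encoded genes took 2.70% to 6.73% of the counts, with 3.94% and 6.73% in mTeSR1. The part of these other cell states in the results was not tested, and in bulk RNA fewer cells of a type cannot be told apart from less RNA per cell.

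Some libraries stood apart. The first library of CHIR99021 at 18 h had the low streak sum of 23.0 CPM, and the WNT target genes AXIN2, SP5, NKD1 and LEF1 summed to 310 CPM in it against 866 in the other. Replicate 2 of mTeSR1 and replicate 2 of WNT3A at 6 h gave more counts to long transcripts, relative to the other libraries: the rank correlation of a gene's deviation with its transcript length was 0.349 and 0.448 in them and -0.293 to -0.0130 in the other libraries. This bears on the guidance genes, whose longest transcripts had a median of 5783 bases against 3615 for all tested genes. Both CHIR99021 18 h libraries are of biological repeat 2 by their titles, whereas each other group has 1 library of each repeat. Every comparison with CHIR99021 at 18 h was therefore fitted with the repeat as a block, and the others without it. Replicate 1 and 2 of CHIR99021 at 18 h are names only.

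Untreated cells already transcribed most of the system. In mTeSR1 12 of the 70 genes were above 100 CPM, 26 lay between 10 and 100, 24 between 1 and 10, and 8 below 1. Divided by the kilobases of all annotated exons of the gene joined, so that genes can be compared, the highest values were EPHB4 at 46.8 ± 3.81 CPM per kb (SD, n = 2), the receptor of ephrin-B2, SEMA6A at 43.1 ± 8.09, EPHA1 at 40.4 ± 2.42 and SEMA6B at 37.8 ± 4.62. Neighbours in the order of these 4 did not differ by more than their summed SDs. The next gene, PLXNB2 at 24.4 ± 2.56, lay below SEMA6B by more than the summed SDs. Divided by the longest transcript instead, a choice made after seeing the data, the same 4 genes led in another order, with SEMA6A at 68.6 ± 12.9 and EPHB4 at 59.6 ± 4.85 CPM per kb. The netrin receptor UNC5B followed at 21.3 ± 0.846, the ephrin EFNA2 at 19.8 ± 1.58 and the slit receptor ROBO1 at 17.1 ± 5.55. The leading genes of the other families were lower: SEMA3F at 11.4 ± 3.49, EFNB3 at 8.80 ± 0.0267, NRP2 at 4.81 ± 1.87, SLIT2 at 1.08 ± 0.106 and NTN1 at 0.834 ± 0.211. The netrins and slits were thus the lowest families by their leading gene, below their receptors UNC5B and ROBO1.

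**Figure D1:**
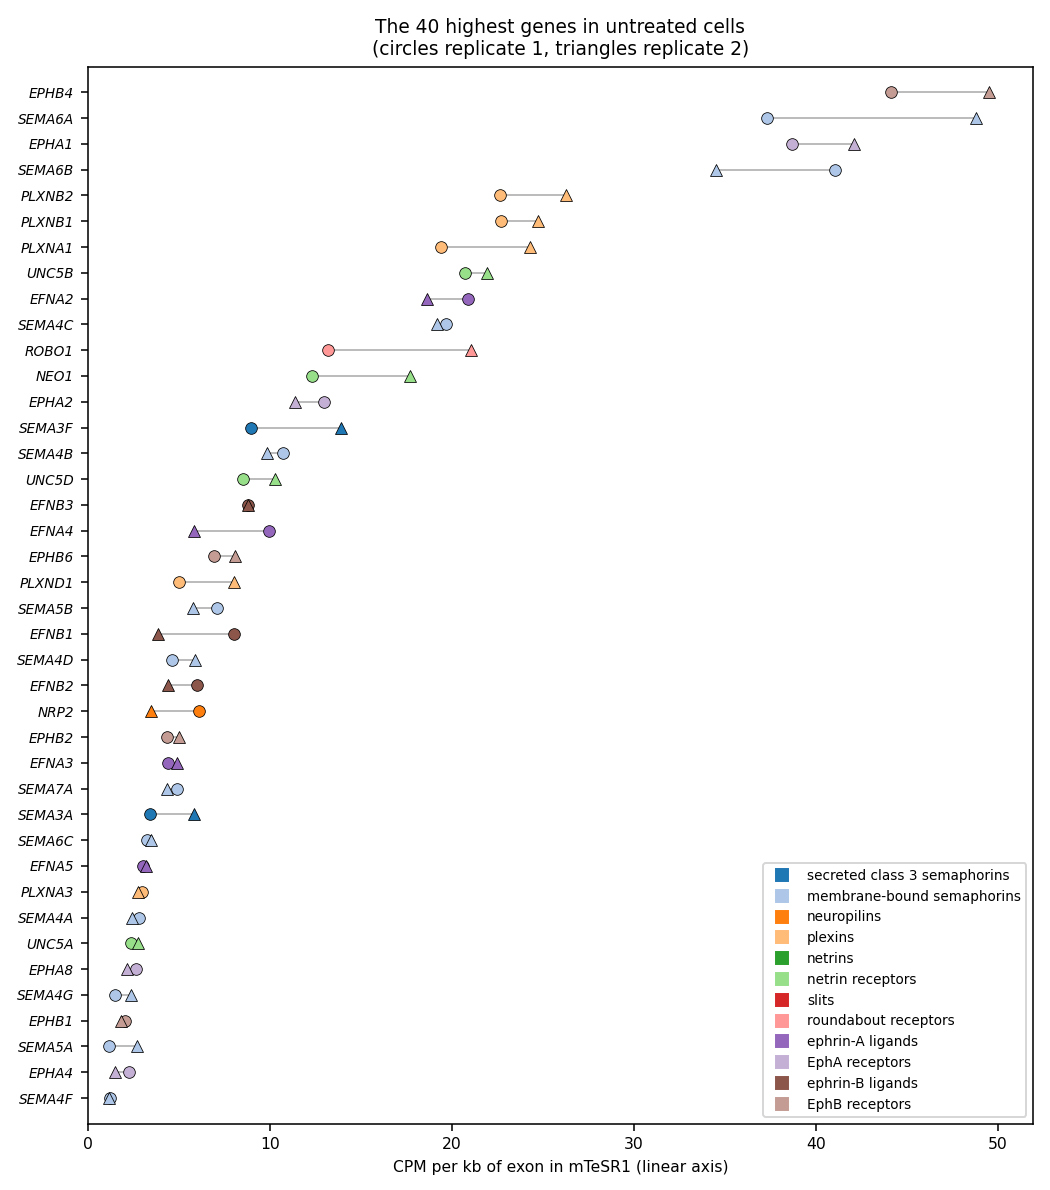
Level per length (CPM per kb of exon, linear axis) of the 40 highest guidance genes in untreated mTeSR1 cells, with a circle for replicate 1 and a triangle for replicate 2. EPHB4, SEMA6A, EPHA1 and SEMA6B lie at the top, between 37.8 and 46.8 CPM per kb as means, and no slit or netrin is near them.

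Treatment changed a minority of these genes, with more calls at 18 h than at 6 h. A gene is called here when its false discovery rate (FDR), from edgeR's quasi-likelihood test with Benjamini-Hochberg adjustment over all 15251 symbols, is under 0.05. After WNT3A for 6 h, 3 of the 66 tested guidance genes rose (SEMA3C, NTN1, EPHA4) and none fell, 4.55% of them against 0.433% of all symbols (0.387% higher and 0.0459% lower). After WNT3A for 18 h, 3 rose (SEMA3C, SLIT2, EFNB2) and 6 fell (SEMA4A, UNC5A, UNC5B, ROBO2, EPHB1, EPHB6), 13.6% against 2.1% of all symbols (1.04% higher and 1.06% lower). After CHIR99021 for 18 h, 5 rose (SEMA3C, SEMA7A, NTN1, SLIT2, EFNB2) and 9 fell (SEMA3F, SEMA4A, SEMA6B, SEMA6D, PLXND1, UNC5B, ROBO2, EPHB1, EPHB6), 21.2% against 2.78% of all symbols (1.15% higher and 1.63% lower). After CHIR99021 for 6 h none was called in edgeR's test, where 0.0197% of all symbols were. Without adjustment p was under 0.05 in that test for 9 of the 66 guidance genes and for 723 of the 15251 symbols. DESeq2 called 2 guidance genes. The median log2 change of the 66 genes was -0.08, -0.25, -0.28 and -0.24 for WNT3A 6 h, WNT3A 18 h, CHIR99021 6 h and CHIR99021 18 h, against 0.01, 0.02, 0.01 and 0.02 over all symbols. The guidance genes have longer transcripts, and mTeSR1 replicate 2, used in each of these comparisons, gave more counts to long transcripts. So did replicate 2 of WNT3A at 6 h. The part of transcript length in these medians was not tested.

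These counts depend on the block and on single libraries. With the repeat as a block the counts were 6 (1.1% of all symbols) after WNT3A for 6 h, 17 (4.92%) after WNT3A for 18 h and 2 (0.138%) after CHIR99021 for 6 h. Without it the count after CHIR99021 for 18 h was 3 (1.19%), namely SEMA3C, EFNB2 and UNC5B. The main counts at 18 h, 9 for WNT3A and 14 for CHIR99021, thus come from unlike fits. Like for like they were 17 and 14 with the block, and 9 and 3 without it. Leaving out mTeSR1 replicate 1 or 2 took the WNT3A 6 h count from 3 to 0 or 1, and leaving out WNT3A 6 h replicate 2 took it to 2. The WNT3A 18 h count of 9 became 3 and 4 without mTeSR1 replicates 1 and 2, and 2 and 4 without WNT3A 18 h replicates 1 and 2, and SEMA3C and SEMA4A were called each time. The CHIR99021 18 h count of 14 became 3 and 0 without mTeSR1 replicates 1 and 2, and 9 and 2 without CHIR99021 18 h replicates 1 and 2. The counts with a library left out are given without the share of all symbols. The WNT3A 18 h calls of UNC5A, ROBO2, EPHB1 and EPHB6 were each lost when any 1 of the 4 libraries compared was left out. So were the CHIR99021 18 h calls of SEMA4A, SEMA6D, SEMA7A, PLXND1 and EPHB1. No log2 change of a called gene turned its sign in these fits. DESeq2 also called each gene given below as passing against mTeSR1 with the block and not without it, apart from NRP2, and some of them passed under further alternatives. All 4 comparisons share the 2 mTeSR1 libraries, so a gene called in several of them is not called independently. Since the labels tie libraries to biological repeats and not to separate cultures in more detail, the p-values measure the spread between these libraries.

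**Figure D2:**
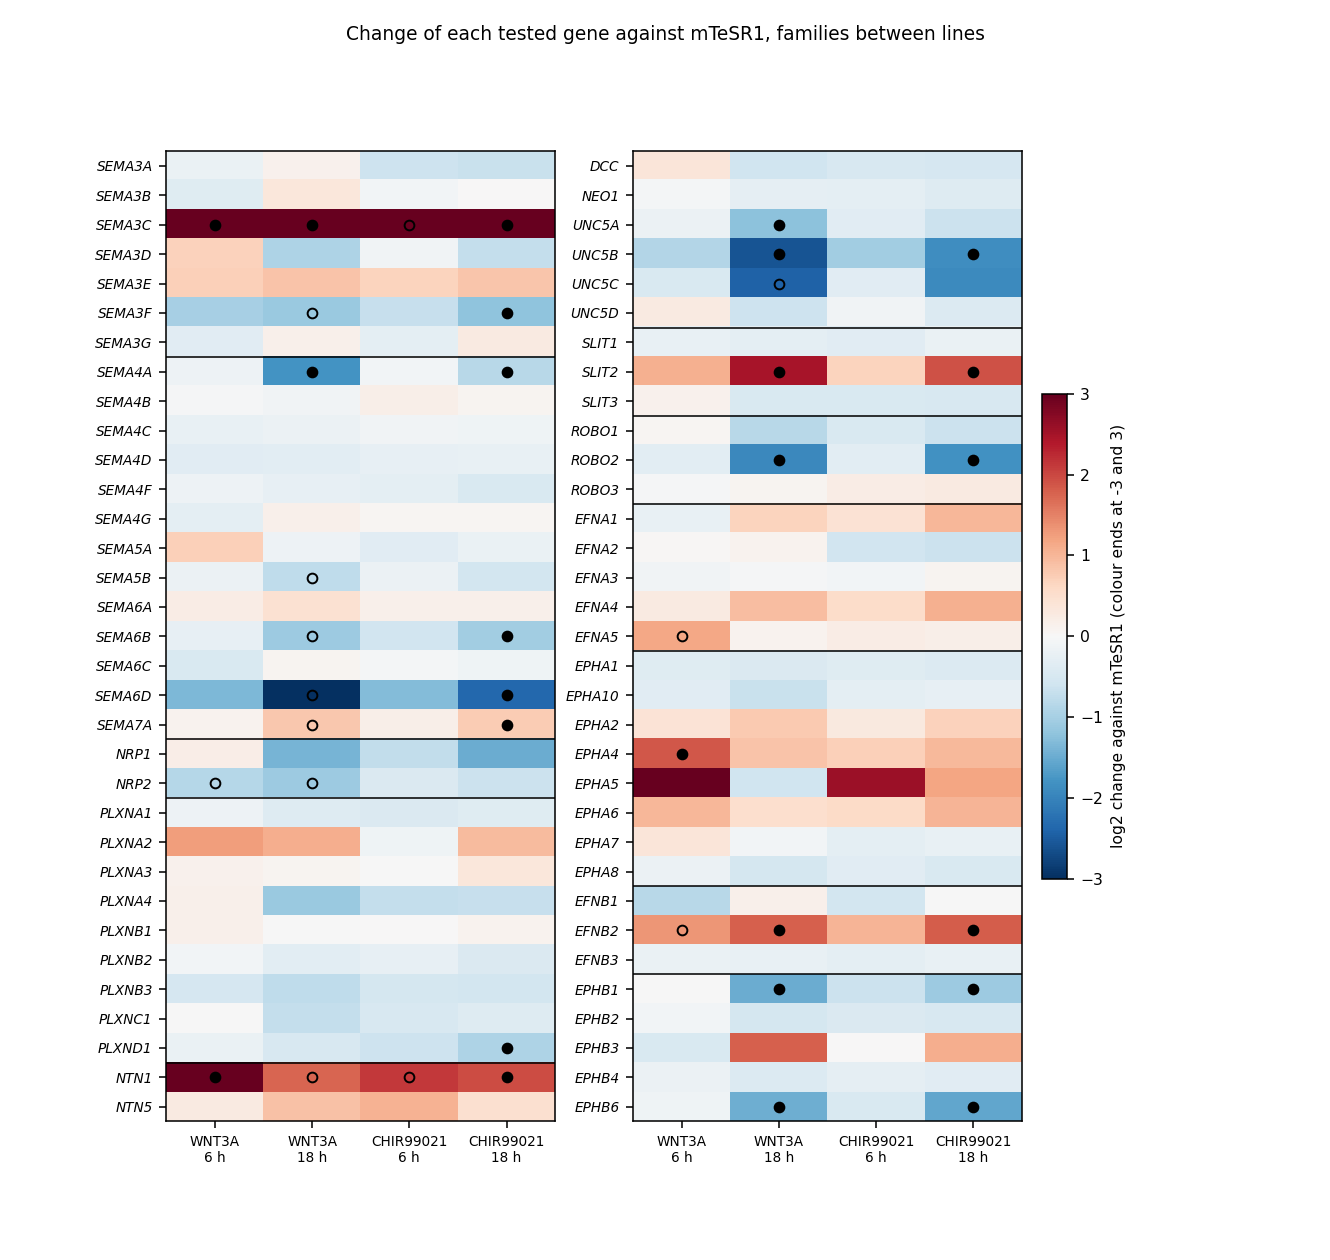
Log2 change against mTeSR1 of the 66 tested guidance genes (rows, by family) after each of the 4 treatments (columns), with colour ending at -3 and 3. Filled dots mark FDR under 0.05 in the test used for that comparison, and open dots mark genes that pass only in the fit with the opposite choice of block. The dots gather in the 2 columns at 18 h, and most rows have none.

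Promoter windows of 5 genes that changed are shown for what they hold of the letters that β-catenin's partners recognise. They were picked among the windows that lie outside annotated exons, 2 of them because they hold the motif. TCF/LEF factors, the DNA-binding partners of β-catenin, recognise a core written CTTTGA, or TCAAAG on the other strand. The sequences below are the 250 bases before an annotated start site (RefSeq, GRCh38.p14), 5′ to 3′ along the gene. They belong to 3 genes that rose, SEMA3C (chr7:80922390-80922639, minus strand, its more distal start), EFNB2 (chr13:106535663-106535912, minus strand) and SLIT2 (chr4:20251655-20251904, plus strand), and to 2 that fell, SEMA6D (chr15:47183839-47184088, plus strand) and SEMA3F (chr3:50158769-50159018, plus strand, a start downstream of its others). Capitals mark the TCF/LEF core.
SEMA3C: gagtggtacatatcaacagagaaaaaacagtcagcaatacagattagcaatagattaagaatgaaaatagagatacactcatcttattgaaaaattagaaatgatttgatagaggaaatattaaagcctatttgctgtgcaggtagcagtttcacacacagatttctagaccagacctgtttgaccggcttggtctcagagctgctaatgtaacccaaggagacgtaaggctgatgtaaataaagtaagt
EFNB2: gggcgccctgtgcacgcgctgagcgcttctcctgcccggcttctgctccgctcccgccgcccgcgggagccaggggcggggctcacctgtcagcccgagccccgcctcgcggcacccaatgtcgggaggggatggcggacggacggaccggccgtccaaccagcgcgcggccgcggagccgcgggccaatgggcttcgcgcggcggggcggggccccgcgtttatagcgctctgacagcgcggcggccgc
SLIT2: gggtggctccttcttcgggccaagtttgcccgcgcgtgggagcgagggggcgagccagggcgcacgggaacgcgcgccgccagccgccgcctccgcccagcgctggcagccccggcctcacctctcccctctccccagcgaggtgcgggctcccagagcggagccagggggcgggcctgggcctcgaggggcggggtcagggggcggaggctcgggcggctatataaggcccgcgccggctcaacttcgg
SEMA6D: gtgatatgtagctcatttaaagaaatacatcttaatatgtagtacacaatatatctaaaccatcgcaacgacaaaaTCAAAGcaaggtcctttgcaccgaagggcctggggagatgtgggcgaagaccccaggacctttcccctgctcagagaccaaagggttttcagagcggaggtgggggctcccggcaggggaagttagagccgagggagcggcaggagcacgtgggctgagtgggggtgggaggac
SEMA3F: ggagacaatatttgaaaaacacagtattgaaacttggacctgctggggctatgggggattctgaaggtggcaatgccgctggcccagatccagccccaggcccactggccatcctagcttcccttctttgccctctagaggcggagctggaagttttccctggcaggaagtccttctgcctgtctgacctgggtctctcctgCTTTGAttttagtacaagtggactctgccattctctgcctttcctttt
SEMA6D's window held 1 core, 174 bases before the start, and SEMA3F's held 1, 48 bases before the start, while the 2 other windows of each gene held none. No window of SEMA3C, EFNB2 or SLIT2 held the core, and neither did any window of SEMA4A, ROBO2, EPHB1, EPHB6, PLXND1 or UNC5A, which also fell. The SEMA3C window shown was 36.4% G and C with no GC box (GGGCGG or CCGCCC), and the gene's other window, which lies in an exon, was 77.6% G and C with 3. EFNB2's window held 3 GC boxes and SLIT2's held 5. Over the set, 60 members matched a RefSeq window, and 9 of their 92 windows (9.78%) held the TCF/LEF core on either strand, against 3937 of 35116 windows (11.2%) of all genes. Of the 30 windows of called genes 3 held it (10%), in SEMA3F, SEMA5B and SEMA6D. The GC box was in 70.7% of members' windows and in 42.6% of all. A match is only a run of letters in a window, and its absence says nothing of binding elsewhere.

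**Figure D3:**
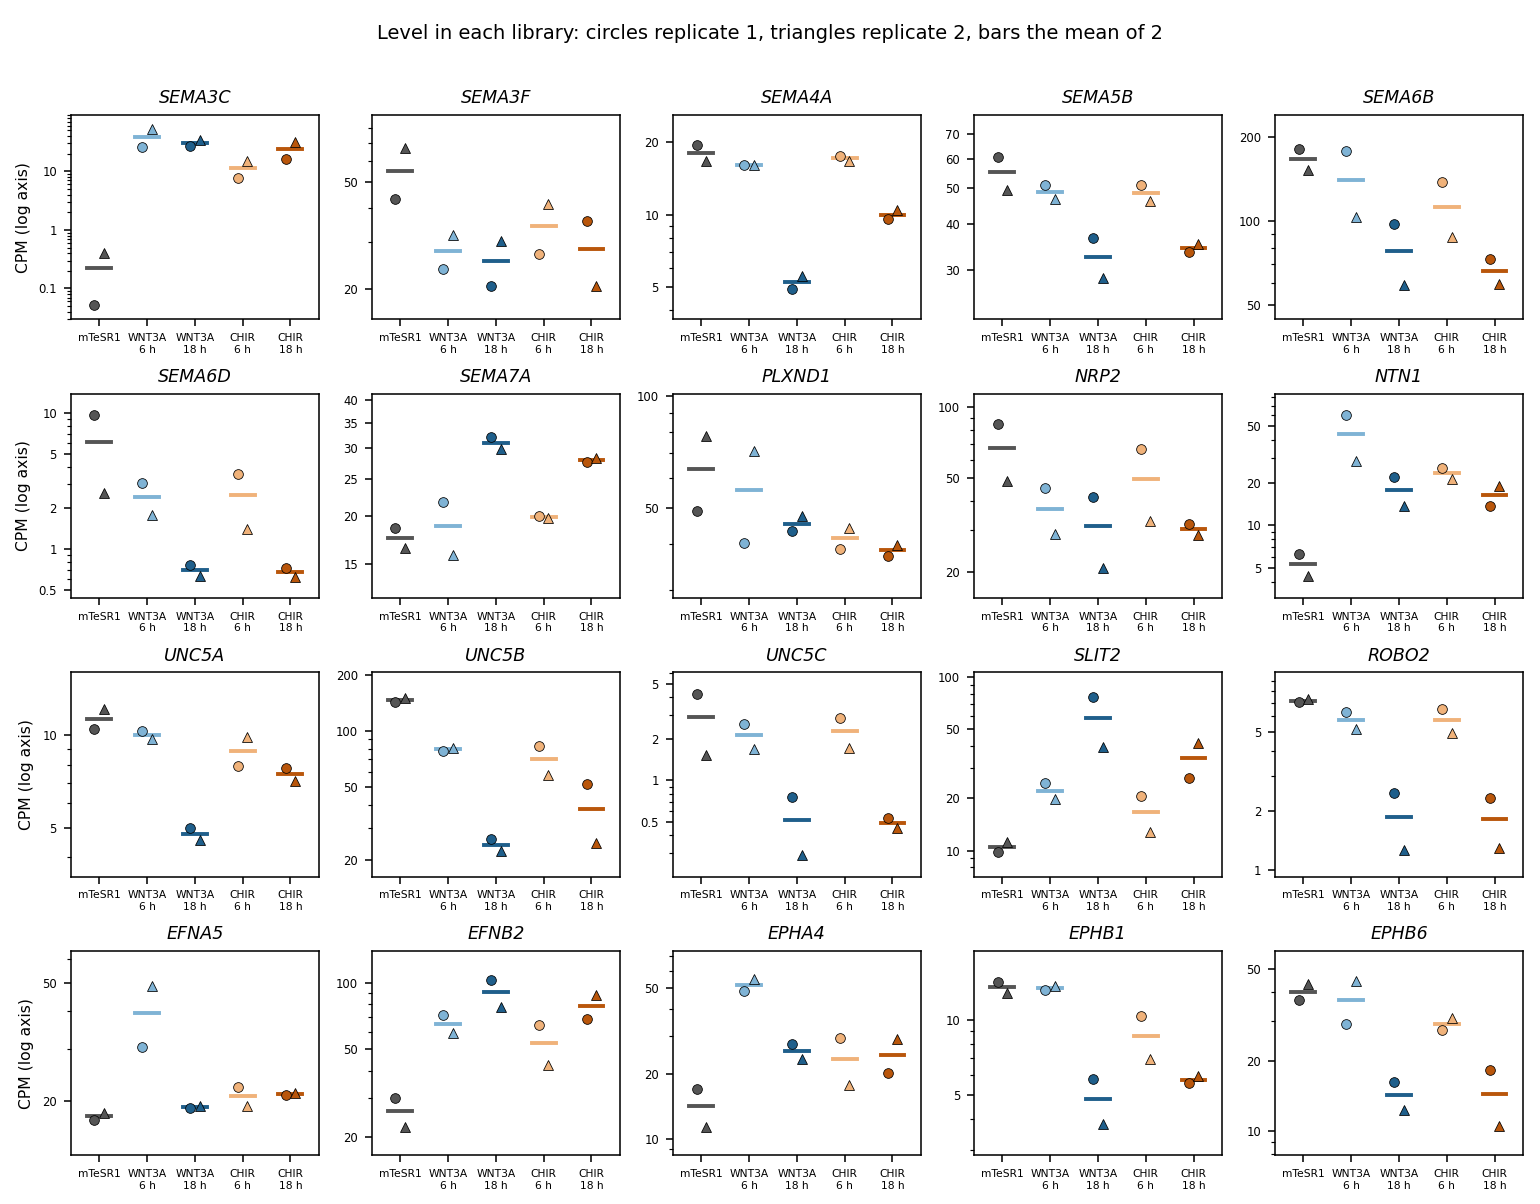
CPM (log axis) of the 20 guidance genes called in at least 1 test, in every library of the 5 groups, with circles for replicate 1, triangles for replicate 2 and bars for the group mean. Replicate 1 and 2 of CHIR99021 18 h are names for 2 libraries of repeat 2. SEMA3C goes from under 0.4 CPM in mTeSR1 to between 7.57 and 52.0 CPM in all treated libraries, and UNC5B goes the other way, from 142 and 150 CPM to 22.4 to 51.3 CPM at 18 h.

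Among the secreted semaphorins SEMA3C (ENSG00000075223, chr7:80742538-80922359, minus strand, GRCh38), known for its part in shaping the outflow tract of the heart, rose from near absence. It was at 0.0523 and 0.397 CPM in mTeSR1, 8 counts in all, against 26.5 and 52.0 CPM after WNT3A for 6 h and 27.3 and 34.7 after 18 h. CHIR99021 gave 7.57 and 14.8 CPM at 6 h and 16.5 and 31.3 at 18 h. Every treated library was above both mTeSR1 libraries. From the summed counts the ratios to mTeSR1 were 186 (95% interval 94.0 to 430, counting error only) for WNT3A 6 h, 141 (71.1 to 327) for WNT3A 18 h, 51.5 (25.9 to 120) for CHIR99021 6 h and 111 (55.9 to 257) for CHIR99021 18 h. The edgeR log2 changes were 7.45 ± 0.75 (SE; FDR 0.00537), 7.10 ± 0.75 (FDR 0.00477), 5.64 ± 0.75 (FDR 0.0791) and 6.39 ± 0.54 (FDR 0.00192) in that order. With the repeat as a block the change at 6 h of CHIR99021 passed as well (edgeR, FDR 0.00712).

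SEMA3F, a repellent that binds neuropilin-2, was among the higher secreted semaphorins in untreated cells and fell. Its level was 43.3 and 67.2 CPM in mTeSR1 and 35.9 and 20.6 CPM after CHIR99021 for 18 h, with no overlap. The log2 change was -1.21 ± 0.24 (edgeR, FDR 0.0376), not called without the block. After WNT3A for 18 h it was at 20.5 and 30.3 CPM, a log2 change of -1.12 that passed with the block but not without it (edgeR, FDR 0.0279 and 0.176). The other 5 class 3 genes, SEMA3A, SEMA3B, SEMA3D, SEMA3E and SEMA3G, passed in none of the 4 comparisons with mTeSR1, and their log2 changes ran from -0.93 (SEMA3D) to 0.86 (SEMA3E), both after WNT3A for 18 h. SEMA3A was the highest of them by count, at 25.2 to 54.9 CPM over the 10 libraries.

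Of the 13 membrane-bound semaphorins, SEMA4A, a cue also known from immune cells, fell with either agent. SEMA4A (ENSG00000196189, chr1:156147366-156177752, plus strand) was at 19.4 and 16.7 CPM in mTeSR1, 16.1 and 16.1 after WNT3A for 6 h, and 4.90 and 5.53 after 18 h. With CHIR99021 it was at 17.6 and 16.7 CPM at 6 h and 9.55 and 10.4 at 18 h. The 18 h libraries of both agents lay below all others. The log2 change at 18 h was -1.79 ± 0.18 for WNT3A (edgeR, FDR 0.00477) and -0.83 ± 0.17 for CHIR99021 (edgeR, FDR 0.0460), the latter lost without the block. Between 6 h and 18 h of WNT3A it fell by 1.63 ± 0.18 on the log2 scale (edgeR, FDR 0.0266), the only guidance gene called in that comparison, in which 0.144% of all symbols were called.

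SEMA6B and SEMA6D, ligands of class A plexins, also fell after CHIR99021 for 18 h. SEMA6B was at 181 and 152 CPM in mTeSR1 and at 72.9 and 59.5 CPM after CHIR99021 for 18 h. Its log2 change was -1.04 ± 0.17 (edgeR, FDR 0.0179), not called without the block. After WNT3A for 18 h it was at 97.3 and 58.9 CPM, also below both mTeSR1 libraries, a log2 change of -1.09 that passed with the block but not without it (edgeR, FDR 0.00695 and 0.161). SEMA6D was low and uneven in mTeSR1, at 9.68 and 2.55 CPM, and reached 0.716 and 0.621 CPM after CHIR99021 for 18 h and 0.753 and 0.633 CPM after WNT3A for 18 h. Its log2 change was -2.36 ± 0.47 for CHIR99021 (edgeR, FDR 0.0376), not called without the block. For WNT3A it was -3.13, which passed with the block but not without it (edgeR, FDR 0.00823 and 0.0693). All 4 libraries at 18 h were below both untreated ones for these 2 genes.

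SEMA7A, tethered to the membrane by a lipid anchor and known to act through integrins and plexin-C1, was the only membrane-bound semaphorin that rose. It was at 18.7 and 16.5 CPM in mTeSR1, 27.6 and 28.3 after CHIR99021 for 18 h and 32.2 and 29.9 after WNT3A for 18 h. The log2 change was 0.77 ± 0.16 (edgeR, FDR 0.0440) for CHIR99021, not called without the block. For WNT3A it was 0.82, which passed with the block but not without it (edgeR, FDR 0.0180 and 0.0631). SEMA5B, at 60.7 and 49.4 CPM in mTeSR1 and 36.5 and 28.6 CPM after WNT3A for 18 h, was called in the test over all 5 groups (edgeR, FDR 0.0422), and its log2 change of -0.76 after WNT3A for 18 h passed with the block but not without it (edgeR, FDR 0.0111 and 0.0633). The other 8, SEMA4B, SEMA4C, SEMA4D, SEMA4F, SEMA4G, SEMA5A, SEMA6A and SEMA6C, passed in none, with log2 changes from -0.47 to 0.71. SEMA6A stayed the most abundant by count, at 409 and 534 CPM in mTeSR1 and 470 to 674 CPM in the treated libraries.

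Among the receptors of semaphorins PLXND1 was the only one called against mTeSR1 in the test chosen for its comparison. PLXND1, plexin-D1, known from blood vessels as a semaphorin receptor, was at 49.0 and 78.1 CPM in mTeSR1 and at 37.1 and 39.7 CPM after CHIR99021 for 18 h. The groups did not overlap, and the log2 change was -0.92 ± 0.19 (edgeR, FDR 0.0460), lost without the block (FDR 0.297). The other 8 plexins passed in no comparison with mTeSR1, with log2 changes from -1.12 (PLXNA4) to 1.26 (PLXNA2). The co-receptor NRP2 was called in the test over all 5 groups (edgeR, FDR 0.0206). It was at 85.3 and 48.5 CPM in mTeSR1, 45.3 and 28.8 after WNT3A for 6 h, 41.7 and 20.7 after WNT3A for 18 h, 66.5 and 33.0 after CHIR99021 for 6 h, and 32.0 and 28.7 after CHIR99021 for 18 h. In the 4 groups with both repeats, the library of repeat 1 was the higher one each time, and each treated library was below the mTeSR1 library of its own repeat. Of all alternatives run, its log2 change after WNT3A passed only with the block, at 6 h (-0.85, FDR 0.951 without and 0.0285 with it) and at 18 h (-1.10, FDR 0.303 and 0.00456). NRP1, at 4.29 and 9.13 CPM in mTeSR1 and 2.75 and 2.37 CPM after CHIR99021 for 18 h, did not pass.

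NTN1 (ENSG00000065320, chr17:9021542-9244000, plus strand), which encodes netrin-1, rose after WNT3A for 6 h and after CHIR99021 for 18 h. It was at 6.28 and 4.37 CPM in mTeSR1, 59.7 and 28.6 after WNT3A for 6 h, and 22.1 and 13.6 after WNT3A for 18 h. CHIR99021 gave 25.5 and 21.2 CPM at 6 h and 13.6 and 18.9 CPM at 18 h. All 8 treated libraries were above both untreated ones, and in each agent the mean was higher at 6 h than at 18 h. The log2 change against mTeSR1 was 3.05 ± 0.41 for WNT3A at 6 h (edgeR, FDR 0.0193). For CHIR99021 at 18 h it was 1.96 ± 0.25 (edgeR, FDR 0.00844), not called without the block. At WNT3A 18 h (1.75, FDR 0.0693) and CHIR99021 6 h (2.13, FDR 0.314) it passed with the block, with an edgeR FDR of 0.00664 and 0.0149. NTN5, the only other netrin that could be tested, was under 0.8 CPM in every library and did not pass.

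Among the netrin receptors UNC5B fell with either agent and UNC5A with WNT3A. UNC5B (ENSG00000107731, chr10:71212570-71302864, plus strand), a repulsive netrin receptor also found on vessels, was at 142 and 150 CPM in mTeSR1, 77.9 and 80.6 after WNT3A for 6 h, and 26.1 and 22.4 after WNT3A for 18 h. With CHIR99021 it was at 83.1 and 57.5 CPM at 6 h and 51.3 and 24.8 at 18 h. Each treated group lay wholly below mTeSR1, and the WNT3A 18 h libraries lay below both WNT3A 6 h libraries. The log2 change at 18 h was -2.59 ± 0.32 for WNT3A (edgeR, FDR 0.00779) and -1.87 ± 0.31 for CHIR99021 (edgeR, FDR 0.0209).

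UNC5A, at 10.4 and 12.1 CPM in mTeSR1, was at 4.99 and 4.55 CPM after WNT3A for 18 h and at 7.82 and 7.05 CPM after CHIR99021 for 18 h. Its log2 change was -1.24 ± 0.21 for WNT3A (edgeR, FDR 0.0223), and with CHIR99021 it did not pass (edgeR, FDR 0.147). The WNT3A call of UNC5A was lost when any 1 of the 4 libraries compared was left out, and with only the groups compared. UNC5C was at 4.24 and 1.53 CPM in mTeSR1 and at 0.753 and 0.288 CPM after WNT3A for 18 h; it was called in the test over all 5 groups (edgeR, FDR 0.0421) and, against mTeSR1, after WNT3A for 18 h with the block (-2.43, edgeR FDR 0.0139) but not without it (FDR 0.108). DCC and NEO1, the attractive receptors, and UNC5D passed in no comparison with mTeSR1, with log2 changes from -0.63 (UNC5D) to 0.35 (DCC).

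SLIT2 (ENSG00000145147, chr4:20253260-20620561, plus strand), a secreted repellent, rose at 18 h of either agent, and its receptor ROBO2 fell. SLIT2 was at 9.78 and 11.2 CPM in mTeSR1, 24.5 and 19.8 after WNT3A for 6 h, and 77.1 and 39.5 after WNT3A for 18 h. CHIR99021 gave 20.8 and 12.8 CPM at 6 h and 26.2 and 41.9 at 18 h. Every treated library was above both untreated ones. The log2 change at 18 h was 2.47 ± 0.38 for WNT3A (edgeR, FDR 0.0162). For CHIR99021 it was 1.91 ± 0.32 (edgeR, FDR 0.0200), not called without the block.

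ROBO2 (ENSG00000185008, chr3:75906695-77649964, plus strand) was at 7.06 and 7.32 CPM in mTeSR1, 2.45 and 1.27 after WNT3A for 18 h and 2.33 and 1.30 after CHIR99021 for 18 h, and the 4 libraries at 6 h were between 4.91 and 6.54 CPM. The libraries at 18 h lay below all others. Its log2 change was -1.94 ± 0.39 for WNT3A (edgeR, FDR 0.0446). For CHIR99021 it was -1.82 ± 0.35 (edgeR, FDR 0.0365), not called without the block. The WNT3A call was lost when any 1 of the 4 libraries was left out, with identifiers kept apart, with only the groups compared, and when a trend with transcript length was taken out, where the log2 change was -1.74 (FDR 0.0565). ROBO1, the most abundant slit receptor, was at 144 and 229 CPM in mTeSR1 and 93.7 to 245 CPM in the treated libraries, and passed in none; nor did ROBO3, SLIT1 or SLIT3, with log2 changes of the 4 genes from -0.83 (ROBO1) to 0.26 (ROBO3).

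EFNB2 (ENSG00000125266, chr13:106489731-106535662, minus strand), ephrin-B2, the ligand of EPHB4 and a marker of arteries, rose with both agents. It was at 30.1 and 22.3 CPM in mTeSR1, 71.4 and 59.0 after WNT3A for 6 h and 103 and 77.9 after WNT3A for 18 h. CHIR99021 gave 64.5 and 42.4 CPM at 6 h and 68.9 and 87.6 at 18 h. No treated library overlapped the untreated ones. The log2 change at 18 h was 1.79 ± 0.26 for WNT3A (edgeR, FDR 0.0138) and 1.81 ± 0.16 for CHIR99021 (edgeR, FDR 0.00250), and at 6 h it was 1.31 for WNT3A (FDR 0.0919 without and 0.00584 with the block) and 1.03 for CHIR99021 (FDR 0.628 and 0.0636). EFNB2 shares 1313 exonic bases with an antisense gene, and as no source used here gives the strand setting, reads of the 2 genes cannot be told apart.

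EFNA5, a lipid-anchored ephrin, was highest in the WNT3A 6 h group. It was at 17.3 and 18.3 CPM in mTeSR1, 30.3 and 48.5 after WNT3A for 6 h, and between 18.9 and 22.3 CPM in the other 6 libraries. It was called in the test over all 5 groups (edgeR, FDR 0.04995), and its log2 change of 1.15 after WNT3A for 6 h passed with the block but not without it (edgeR, FDR 0.0424 and 0.0838). The other ephrins, EFNA1, EFNA2, EFNA3, EFNA4, EFNB1 and EFNB3, passed in no comparison with mTeSR1. Among them EFNA4 had the highest log2 change, from 12.6 and 7.37 CPM in mTeSR1 to 15.7 and 20.3 CPM after CHIR99021 for 18 h (log2 change 1.07, edgeR FDR 0.069).

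EPHA4 (ENSG00000116106, chr2:221418027-221574202, minus strand), a receptor for ephrins of either class that is known for somite boundaries, was the only receptor that rose in any treatment. It was at 17.1 and 11.4 CPM in mTeSR1, 48.6 and 54.8 after WNT3A for 6 h and 27.7 and 23.6 after WNT3A for 18 h. CHIR99021 gave 29.3 and 17.7 CPM at 6 h and 20.2 and 29.0 at 18 h. The WNT3A 6 h libraries lay above all others. The log2 change there was 1.86 ± 0.30 (edgeR, FDR 0.0427), and the call was lost when any 1 of the 4 libraries compared was left out. EPHA4 shares 353 exonic bases with an antisense gene. The other 7 EphA receptors tested passed in none. EPHA5 had the highest fitted value of them, at 41 counts after WNT3A for 6 h against 3 in mTeSR1 (ratio 10.8, 95% counting interval 3.43 to 54.3). Replicates 1 and 2 of WNT3A 6 h were at 0.283 and 1.37 CPM, a spread that this interval leaves out.

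The EphB receptors that changed went down. EPHB1 (ENSG00000154928, chr3:134597801-135260467, plus strand), a kinase that binds ephrin-B ligands, was at 14.2 and 12.8 CPM in mTeSR1, 5.79 and 3.80 after WNT3A for 18 h and 5.55 and 5.92 after CHIR99021 for 18 h. The log2 change was -1.49 ± 0.27 (edgeR, FDR 0.0300) and -1.08 ± 0.23 (edgeR, FDR 0.0460). EPHB6 (ENSG00000106123, chr7:142855061-142871094, plus strand), whose kinase domain is inactive and whose counts were summed over 2 identifiers, was at 36.9 and 43.1 CPM in mTeSR1, 16.3 and 12.4 after WNT3A for 18 h and 18.4 and 10.6 after CHIR99021 for 18 h. Its log2 change was -1.48 ± 0.30 (edgeR, FDR 0.0484) and -1.55 ± 0.30 (edgeR, FDR 0.0376). The CHIR99021 calls of EPHB1 and EPHB6 were lost without the block. The WNT3A calls of both were lost when any 1 of the 4 libraries compared was left out, as was the CHIR99021 call of EPHB1. With identifiers kept apart the WNT3A call of EPHB6 was lost as well. For both genes the 18 h libraries lay below all libraries of mTeSR1 and of 6 h. EPHB4, the partner of EFNB2 and among the 4 highest genes per length, was at 284 and 319 CPM in mTeSR1 and 204 to 286 CPM in the treated libraries and did not pass, nor did EPHB2 or EPHB3. EPHB3 was at 0.889 and 1.19 CPM in mTeSR1 and 4.85 and 2.30 CPM after WNT3A for 18 h.

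The calls at 18 h are given here by role, a split that was not among the planned tests. Of all symbols, 1.04% rose and 1.06% fell after WNT3A for 18 h. After CHIR99021 for 18 h, 1.15% rose and 1.63% fell. All 3 genes that rose after WNT3A and all 5 that rose after CHIR99021 were ligands, and no receptor of the 33 tested rose at 18 h, with or without the block. Of the genes that fell, 5 of 6 after WNT3A and 5 of 9 after CHIR99021 were receptors. With the block, 5 ligands and 7 receptors fell after WNT3A, and without it 0 ligands and 1 receptor fell after CHIR99021. Those fits called 4.92% and 1.19% of all symbols in either direction. The median log2 change of the 33 tested ligands was 0.10 after WNT3A for 18 h and -0.01 after CHIR99021 for 18 h, and that of the 33 tested receptors was -0.54 and -0.41. The difference between the roles was not tested, nor was the part of transcript length in these medians.

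**Figure D4:**
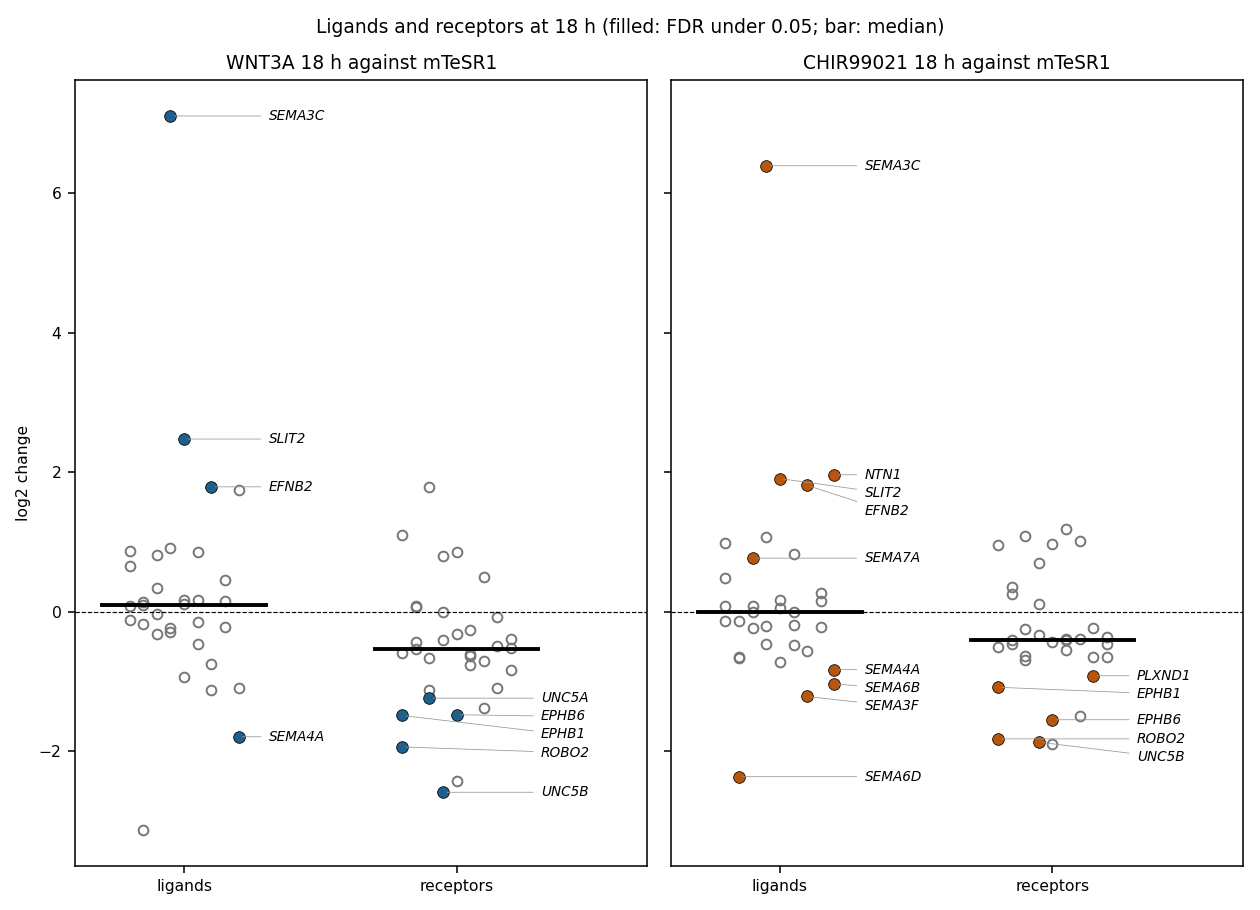
Log2 change against mTeSR1 at 18 h of each tested ligand and receptor, for WNT3A and for CHIR99021. Filled points are called genes and bars are medians, which lie at 0.10 and -0.01 for ligands and at -0.54 and -0.41 for receptors.

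No guidance gene passed a direct test of one agent against the other. At 18 h, 0 of 66 genes differed between CHIR99021 and WNT3A in edgeR's test (0% of all symbols), with 7 at an unadjusted p under 0.05 and 0 in DESeq2. The lowest p was that of SEMA4A, higher with CHIR99021 by 0.96 on the log2 scale (95% interval 0.55 to 1.37; edgeR, FDR 0.884). UNC5A was also higher in value, by 0.59 (0.10 to 1.08), and SEMA3C was lower, by -0.78 (-1.55 to -0.01). For EFNB2 the difference was 0.02 (-0.33 to 0.37). The median half-width of these intervals over the 66 genes was 0.568. The intervals are not adjusted for the number of symbols tested. Differences larger than this could thus also go uncalled, as that of SEMA4A did.

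At 6 h, 0 of 66 genes differed between the agents in edgeR's test (0.00656% of all symbols), with 9 at an unadjusted p under 0.05 and 0 in DESeq2. SEMA3C, EPHA4 and NTN1, which WNT3A raised at that time, and EFNA5 were lower in value with CHIR99021: SEMA3C by -1.81 (-2.94 to -0.68), EPHA4 by -1.14 (-1.80 to -0.47), NTN1 by -0.92 (-1.77 to -0.06) and EFNA5 by -0.92 (-1.42 to -0.43), each with an FDR of 0.691. The same WNT3A libraries chose SEMA3C, EPHA4 and NTN1 as risers, so a lower value with the other agent is not independent of that choice. The median half-width at 6 h was 0.687.

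**Figure D5:**
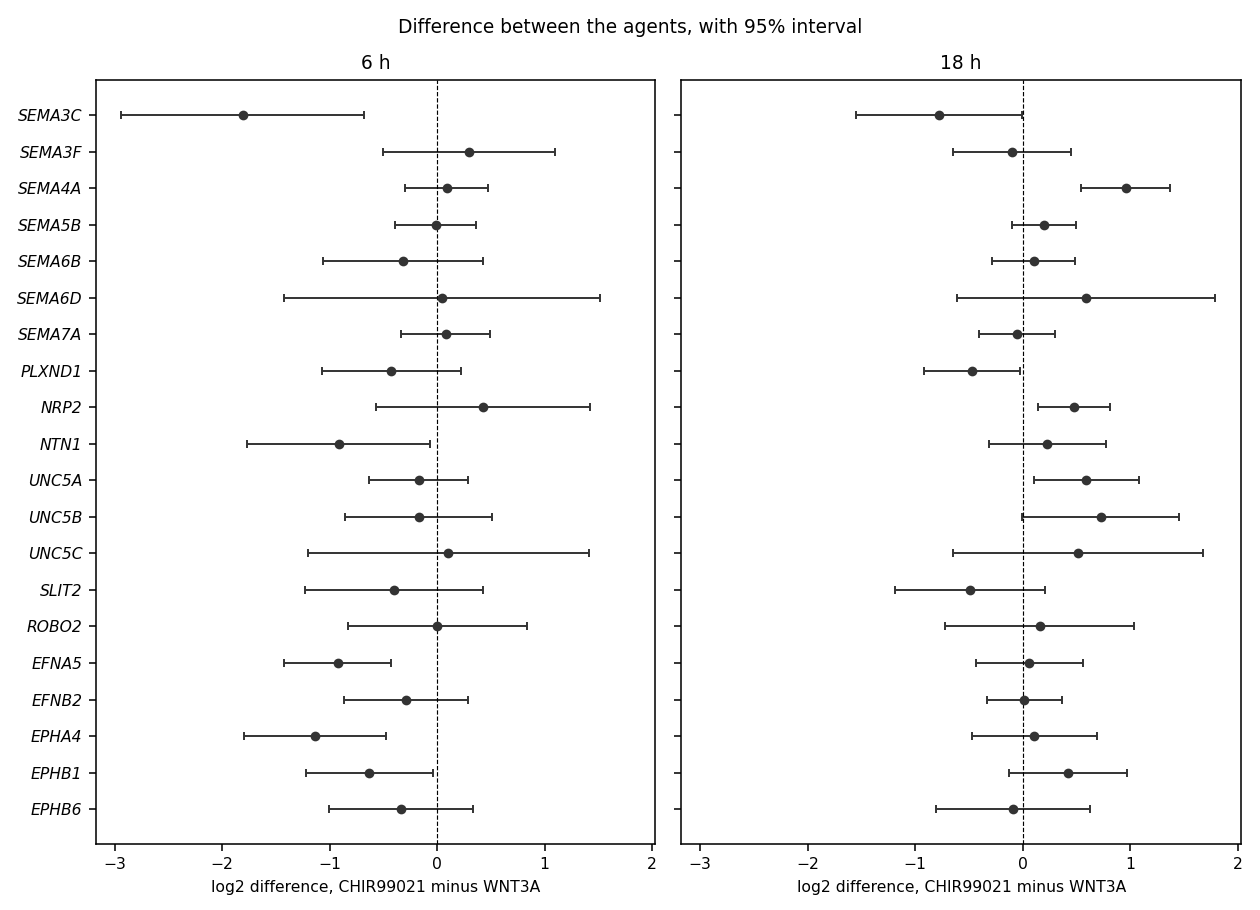
Difference between CHIR99021 and WNT3A (log2, CHIR99021 minus WNT3A) at 6 h and at 18 h for the 20 called guidance genes, with 95% intervals. The intervals were worked out from edgeR's F statistic. At 6 h the intervals of SEMA3C, NTN1, EFNA5, EPHA4 and EPHB1 lie below 0, and at 18 h those of SEMA4A, NRP2 and UNC5A lie above 0 and those of SEMA3C and PLXND1 below 0, but none passed the adjustment.

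Over time, 0 of 66 genes differed between 18 h and 6 h of CHIR99021 in edgeR's test (0.00656% of all symbols), with 12 at an unadjusted p under 0.05 and 2 in DESeq2. EFNB2 had the lowest p there, with a log2 change of 0.79 (edgeR, FDR 0.218). With the block, 10 genes differed between 18 h and 6 h of WNT3A against 1 without it (1.83% of all symbols with the block). They were SEMA7A, which was higher at 18 h, and SEMA3D, SEMA4A, SEMA6B, NTN1, UNC5A, UNC5B, UNC5C, EFNA5 and EPHB1, which were lower. No gene's change with time differed between the agents (0 of 66 in edgeR's test, 0% of all symbols, 6 at an unadjusted p under 0.05, 0 in DESeq2). The lowest p was again that of SEMA4A (0.87 on the log2 scale; edgeR, FDR 0.927). In the test over all 5 groups 17 genes were called against 3.03% of all symbols, and 3 without the block (0.905%).

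Of 20 further cues, co-receptors and adhesion partners 18 could be tested, and RGMB, a repulsive cue that binds neogenin and a co-receptor of BMP signalling, rose in all 4 treatments. It was at 21.3 and 21.9 CPM in mTeSR1, 91.6 and 91.8 after WNT3A for 6 h, 89.8 and 117 after WNT3A for 18 h, 59.9 and 72.1 after CHIR99021 for 6 h and 115 and 130 after CHIR99021 for 18 h. Every treated library was well above both untreated ones, and the log2 changes were 2.09 (edgeR, FDR 0.00250), 2.26 (FDR 0.00252), 1.61 (FDR 0.0355) and 2.42 (FDR 0.000600). Of the 33 tested intracellular mediators of guidance receptors, PAK3, a kinase downstream of Rac and Cdc42, fell at 18 h, by 1.67 on the log2 scale after WNT3A (edgeR, FDR 0.0223) and by 1.43 after CHIR99021 (edgeR, FDR 0.0300). RGMB was 1 of 18 and PAK3 1 of 33, the only genes of their lists called against mTeSR1. Of all symbols, 2.1% and 2.78% were called at 18 h of WNT3A and CHIR99021, and 0.433% and 0.0197% at 6 h. The share of mediators called at 18 h was thus near that of all symbols.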

How the data were processed

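The deposited table gave estimated counts per Ensembl gene for the 10 libraries; the authors made them from poly-T selected, paired-end RNA-seq, per the labels, with Salmon 1.8.0 on GRCh38, per the submitters' processing notes. Counts of the 37951 identifiers were summed per symbol and rounded. Symbols were kept with edgeR's filter (minimum count 10, minimum total 15), scaled by TMM and fitted with the robust quasi-likelihood model (R 4.3.3, edgeR 4.0.16, limma 3.58.1), all 10 libraries in 1 fit, with Benjamini-Hochberg adjustment over the 15251 symbols tested. Comparisons with CHIR99021 at 18 h, and the test over all groups, had the biological repeat as a block; the others did not. Replicate numbers follow the labels, except for CHIR99021 at 18 h. The titles of its 2 libraries read "rep 2" and "rep 2, rep 2". Both were therefore placed in repeat 2, and their numbers as replicate 1 and 2 are names only. The repeats pair the libraries, since over 6 pairs deviations from the group means correlated at 0.261 to 0.595. The fits without the block did not use this pairing. Gene positions and lengths came from GENCODE 29 (GRCh38) and promoter windows from RefSeq (GRCh38.p14). Genes were named where called in a test, in the fit with or without the block, and otherwise as the highest of a family. The members and lists were chosen with earlier results of these data known. On simulated counts the test recovered 53.7% of 2-fold and 100% of 4-fold changes for WNT3A 18 h, and 73.1% and 100% for CHIR99021 18 h. False calls numbered 0 and 8. The simulated counts had the spread of the fit with the block, and the lowest genes were given no change. The fit without the block, used for WNT3A 18 h, had a wider spread (common coefficient of variation 0.224 against 0.159). The recovered shares are thus not the power in the real libraries. Alternatives were the other use of the block, DESeq2 1.42.0, other scaling, no filter, identifiers kept apart, only the compared groups, and leaving out each library. Counts limit precision at the floor of 3 counts, 0.112 to 0.180 CPM.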

Additional observations from a re-analysis of the deposited data

How the results depend on the processing

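No log2 change of a called guidance gene reversed its direction under any alternative run. The count of called genes did depend on the pairing of libraries: with the replicate block it was 6 after WNT3A for 6 h, 17 after WNT3A for 18 h, 2 after CHIR99021 for 6 h and 10 between 18 h and 6 h of WNT3A, and with no replicate block it was 3 after CHIR99021 for 18 h and 3 in the test over all groups. DESeq2 gave 5, 17, 2 and 14 for the first 4 of these, 2 between 18 h and 6 h of CHIR99021 and 28 over all groups. With no filter on low counts the values were 5 after WNT3A for 6 h, 15 after WNT3A for 18 h and 10 between its times. With only the groups compared they were 0 after WNT3A for 6 h, 1 after CHIR99021 for 6 h and 0 between the times of WNT3A. With identifiers kept apart they were 7 after CHIR99021 for 18 h and 10 over all groups. Leaving out 1 library at a time gave 0 to 3 calls after WNT3A for 6 h, 2 to 4 after WNT3A for 18 h, 0 to 9 after CHIR99021 for 18 h, 0 to 2 between the times of WNT3A and 2 to 17 over all groups, and 0 to 0 in the other comparisons. Taking out a trend with transcript length, chosen after seeing the data, gave 4, 9, 0 and 18 calls against mTeSR1 for WNT3A 6 h, WNT3A 18 h, CHIR99021 6 h and CHIR99021 18 h, 1 between the times of WNT3A and 21 over all groups. Apart from the fits that differ in the block, these counts are given without the share of all symbols called. They show how far the counts move, not how guidance genes compare with other genes. Fits with fewer samples or groups have fewer residual degrees of freedom. Why the counts moved was not tested for any alternative. Over single genes 373 values kept their side of the threshold, 56 came to pass it and 110 no longer passed. Genes near 1 CPM are limited by depth.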

Other observations

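EFNB1, ephrin-B1, whose level was not called in any comparison with mTeSR1, differed by biological repeat. It was at 26.6 and 12.8 CPM in repeats 1 and 2 of mTeSR1, 17.5 and 4.87 after WNT3A for 6 h, 32.3 and 11.7 after WNT3A for 18 h, and 19.7 and 7.07 after CHIR99021 for 6 h. The library of repeat 1 was the higher one in all 4 of these groups. Both libraries of CHIR99021 at 18 h, which are of repeat 2, were at 6.86 and 15.3 CPM. This difference was noticed in the data and was not tested.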
